A study of Eriocheir sinensis with 6 samples.

Results

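SSTR2 is the name the study gives to the gene evm.TU.CM024152.1.288 of the Chinese mitten crab, *Eriocheir sinensis*, which it lists among its candidate G protein-coupled receptors. The members described here are all merged ATAC-seq peaks that the deposited peak table links to this gene, which are 17 of 104657 merged peaks. ATAC-seq uses the Tn5 transposase to cut open chromatin, so the number of reads in a peak measures how accessible that stretch of DNA is. The muscle of juvenile crabs of 8.41 ± 1.47 g, kept at 20 ± 1 °C, was sampled at the pre-molt stage (3 libraries) and at the post-molt stage (3 libraries), with no treatment named in the labels. The stages lie before and after the shedding of the old exoskeleton. According to the study's methods, each library came from a different crab and the tissue was that of the walking leg. The comparison asks whether accessibility around SSTR2 in muscle differed between the stages. All changes are post-molt over pre-molt, and values for single libraries follow the order of replicates 1, 2 and 3 of a stage.

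Somatostatin receptors cross the cell membrane 7 times and pass a peptide signal to inhibitory G proteins, which lower the production of cyclic AMP. In vertebrates, somatostatin acting through them restrains the release of growth hormone and of other hormones. In insects, the closest relatives of this family are the receptors of the neuropeptide allatostatin C. These roles are background from other animals, and neither the transcript nor the protein of the crab gene is measured by these libraries.

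The pair of primers that the study designed for this gene is shown because it identifies the gene model beyond its ID. Each is 20 bases long and written 5′ to 3′, and all letters are lower case because no part was singled out.
SSTR2 forward primer: gcgaaggagtagcggatgaa
SSTR2 reverse primer: tctccaaactggtgtcgctc
The bases under the peaks themselves were not used here, because no genome of the build of the files was at hand.

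SSTR2 is a short gene model of 1610 bp at CM024152.1:8660497-8662106, on the minus strand of the published crab genome that the study aligned to, so transcription starts at position 8662106. Its neighbour evm.TU.CM024152.1.287 (CM024152.1:8641145-8660185) lies on the plus strand and ends 311 bp from the end of SSTR2, so that the genes run towards each other. The 17 linked peaks spread over 170.4 kb. By the annotation in the table, 1 is of the promoter class (within 3000 bp of a start site), 1 lies in an intron of the neighbour evm.TU.CM024152.1.287 and 15 are distal intergenic. The intergenic peaks lie upstream of the gene at distances of 21.3 to 160.5 kb. The table gives each peak to the gene with the nearest start site, so a link is a matter of position and no target gene was measured.

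The SSTR2 start site itself lay outside every merged peak. No merged peak and no peak of any library's own list fell in the 22.5 kb from 8660938 to 8683438, which holds the start site and the 21.3 kb upstream of it. The promoter-class peak, CM024152.1:8659217-8660937, was assigned to a distance of 1169 bp downstream of the start. It covers 441 bp at the 3′ end of SSTR2, the 311 bp between the genes and 969 bp at the end of evm.TU.CM024152.1.287. Reads in it therefore cannot be divided between the genes. Across the table, 32.3% of the 20287 promoter-class peaks covered a start site and 18.3% lay at least 1 kb downstream of one. Of the 12536 genes with a promoter-class peak, 52.3% had one over the start site.

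The change was towards lower accessibility post-molt in every SSTR2 peak, though not all of them passed the test. Of the 17 peaks, 7 were lower post-molt and 0 were higher in edgeR's quasi-likelihood test with a Benjamini-Hochberg adjusted p below 0.05, against 3.86% lower and 6.08% higher of all merged peaks. All 17 log2 changes were below 0, from -3.20 to -0.52 with a median of -1.36. Among all merged peaks 51.7% were below 0 and the median was -0.03. In 10 of the 17, every post-molt library lay below every pre-molt library in CPM (read counts scaled to the reads in merged peaks with TMM factors), a pattern held by 12.1% of all merged peaks. At an unadjusted p below 0.05, edgeR gave 12 of the 17 lower and 0 higher, against 10% lower (10518 peaks) and 13.7% higher of all merged peaks. The count of 7 became 4 when pre-molt replicate 3 was left out, with 2.80% of all merged peaks lower, and 4 when post-molt replicate 2 was, with 1.53%. The higher count was 0 under each alternative run. Of the 17, 12 overlapped no peak of any post-molt library's own list, as did 28.4% of all merged peaks. These 12 are in the set through pre-molt calls, which favours lower post-molt values. The shares of all merged peaks are not matched for this. The members also called post-molt, at 1.2 kb downstream and 21.3, 95.0, 112.0 and 117.1 kb upstream, had log2 changes of -1.84, -0.52, -1.29, -0.80 and -2.35. Cell types of the muscle were not separated, so fewer cells in which a region is open and less opening per cell cannot be told apart.

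**Figure D1:**
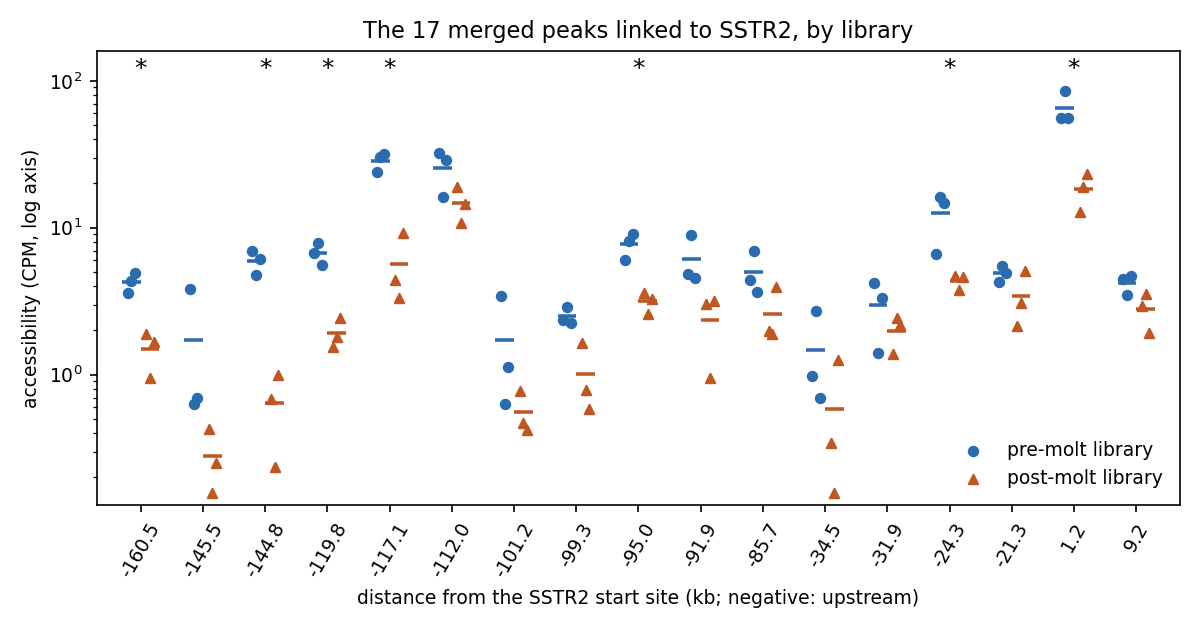
Accessibility (CPM, log axis) of each SSTR2 peak in the 3 pre-molt and 3 post-molt libraries, against its distance from the SSTR2 start site in kb. Short lines are means of 3, and asterisks mark the 7 peaks that passed the test. The promoter-class peak at 1.2 kb is the strongest, at 55.4 to 85.7 CPM pre-molt and 12.7 to 23.3 post-molt.

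The promoter-class peak was the strongest of the set and fell 3.59-fold. It held 689, 1225 and 637 reads pre-molt and 148, 239 and 279 post-molt. Scaled to CPM these were 55.9, 85.7 and 55.4 pre-molt against 12.7, 18.8 and 23.3 post-molt, a mean of 65.7 ± 17.4 against 18.3 ± 5.30 (SD, n = 3 each). Pre-molt replicate 2 stood highest, and the stages did not overlap. The log2 change was -1.84 (SE 0.33, adjusted p = 0.00135). With pre-molt replicate 2 or any other library left out the peak still passed, and across all 15 alternatives its adjusted p ranged from 1.01e-06 to 0.0118. At 1721 bp the merged peak was wide, with 0.789% of all merged peaks wider.

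Within each library's own peak list, the same promoter-class stretch was narrower and weaker post-molt. MACS2 had called 1 region with 4, 3 and 5 summits in the pre-molt libraries, covering 1433, 1711 and 1469 bp of the merged peak. In the post-molt libraries the called regions covered 429, 960 and 1007 bp and held 1, 2 and 2 summits. The highest fold enrichment over local background was 5.05, 6.46 and 4.83 pre-molt and 2.97, 4.00 and 4.14 post-molt, without overlap between the stages. The -log10 q of the strongest summit was 24.5, 54.2 and 18.7 pre-molt and 2.43, 7.42 and 8.28 post-molt. These lists come from the same reads as the counts and repeat the comparison in another form.

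Among the distal peaks, the largest change was at CM024152.1:8806921-8807339, 144.8 kb upstream. It held 86, 68 and 70 reads pre-molt and 8, 3 and 12 post-molt. In CPM these were 6.98, 4.76 and 6.09 against 0.689, 0.236 and 1.00, a mean of 5.94 ± 1.12 against 0.642 ± 0.385 (n = 3 each). The lowest pre-molt library stood several times above the highest post-molt one. The log2 change of -3.20 (SE 0.49, adjusted p = 4.62e-04) is a 9.17-fold drop, and 32 of all 104657 merged peaks had a lower log2 change. That rank is not matched for how peaks entered the table. This peak was called in every pre-molt library and in no post-molt one, which favours a lower post-molt value. A peak 145.5 kb upstream (CM024152.1:8807610-8807819), beside it, was faint, with 47, 9 and 8 reads pre-molt and 5, 2 and 3 post-molt. Its log2 change of -2.58 (SE 0.97, adjusted p = 0.0972) did not pass, and pre-molt replicate 1 held most of its reads.

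A strong distal peak 117.1 kb upstream, CM024152.1:8779242-8780008, fell 5.08-fold. It held 294, 435 and 363 reads pre-molt and 51, 42 and 110 post-molt, which are 23.9, 30.4 and 31.6 CPM against 4.39, 3.31 and 9.19. Pre-molt libraries lay close together, and post-molt replicate 3 was the highest of its stage. The mean was 28.6 ± 4.17 CPM pre-molt and 5.63 ± 3.13 CPM post-molt (n = 3 each), a log2 change of -2.35 (SE 0.37, adjusted p = 5.76e-04). Per kb of peak it was as open pre-molt as the promoter-class peak, at 37.3 against 38.2 CPM per kb, and post-molt it had 7.34 against 10.6. Its neighbour 119.8 kb upstream (CM024152.1:8781875-8782292) was weaker, with 83, 113 and 64 reads pre-molt and 18, 23 and 29 post-molt. That peak fell 3.48-fold, from 6.74 ± 1.17 to 1.93 ± 0.448 CPM (n = 3 each; log2 change -1.80, SE 0.38, adjusted p = 0.00445). The stages did not overlap in either peak. The one at 119.8 kb had no post-molt call, which favours a lower post-molt value.

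The peak just before this pair changed less. CM024152.1:8774082-8775304, 112.0 kb upstream, held 394, 230 and 332 reads pre-molt and 219, 136 and 173 post-molt. Its mean was 25.6 ± 8.41 CPM pre-molt and 14.7 ± 4.07 CPM post-molt (n = 3 each), and the log2 change of -0.80 (SE 0.33, adjusted p = 0.137) did not pass. The lowest pre-molt library, replicate 2, lay below the highest post-molt library. Without pre-molt replicate 2 the peak passed, with a log2 change of -1.04 and an adjusted p of 0.0391. Reads of the peak at 117.1 kb over reads of this peak, 3.9 kb away, gave ratios of 0.746, 1.89 and 1.09 in the pre-molt libraries and 0.233, 0.309 and 0.636 in the post-molt libraries. These are the strongest distal members, and the difference between their changes is given as a description with no test.

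Calls at the remaining 3 peaks that passed were each lost when any 1 of several libraries was left out. Fewer of all merged peaks were called lower in those fits too. The peaks at 24.3 and 160.5 kb had no call in a post-molt library, which favours a lower post-molt value. The peak 24.3 kb upstream (CM024152.1:8686386-8687107), the strongest of those nearest the start on the upstream side, held 82, 231 and 169 reads pre-molt and 55, 48 and 55 post-molt. It fell from 12.5 ± 5.12 to 4.37 ± 0.513 CPM (n = 3 each; log2 change -1.52, SE 0.37, adjusted p = 0.0104). Pre-molt replicate 1, at 6.65 CPM, was closer to the highest post-molt library, at 4.73, than to the other pre-molt libraries, at 16.2 and 14.7. The adjusted p was 0.0609 when pre-molt replicate 2 was left out and 0.0601 when either pre-molt replicate 3 or post-molt replicate 2 was.

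The peak 95.0 kb upstream (CM024152.1:8757128-8757487) stood at 6.0, 8.12 and 9.13 CPM pre-molt and at 3.62, 2.60 and 3.26 post-molt. It fell from 7.75 ± 1.60 to 3.16 ± 0.514 CPM (n = 3 each; log2 change -1.29, SE 0.36, adjusted p = 0.0227). The farthest peak, 160.5 kb upstream (CM024152.1:8822642-8823024), held 44, 62 and 57 reads pre-molt and 22, 12 and 20 post-molt. Its level went from 4.29 ± 0.696 to 1.50 ± 0.496 CPM (n = 3 each; log2 change -1.51, SE 0.43, adjusted p = 0.0281). Neither peak's stages overlapped. Leaving out pre-molt replicate 2 or 3 or post-molt replicate 2 or 3 ended each call, with adjusted p values of 0.0628, 0.0985, 0.119 and 0.0718 at 95.0 kb and of 0.0752, 0.110, 0.140 and 0.0660 at 160.5 kb. At 160.5 kb, limma on the deposited fold enrichment gave 0.0624 and 0.0658 with the pseudocounts of 0.5 and 1.

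The other peaks that did not pass were weak. Beside the peaks at 112.0 and 145.5 kb, these were the intron peak at 9.2 kb downstream, peaks at 21.3, 31.9 and 34.5 kb upstream, and peaks at 85.7, 91.9, 99.3 and 101.2 kb upstream. Their means lay between 1.47 and 6.09 CPM pre-molt and between 0.555 and 3.44 CPM post-molt, and their log2 changes between -1.62 and -0.52. The intron peak, CM024152.1:8652636-8652875, had 55, 50 and 54 reads pre-molt and 34, 45 and 23 post-molt, with a log2 change of -0.59 (SE 0.39, adjusted p = 0.393). The peak nearest the start on the upstream side, CM024152.1:8683439-8683877 at 21.3 kb, had 53, 79 and 57 reads pre-molt and 25, 39 and 61 post-molt, with a log2 change of -0.52 (SE 0.39, adjusted p = 0.457). Post-molt replicate 3 lay within the pre-molt range there. The peak at 91.9 kb, CM024152.1:8754004-8754639, came closest to passing, with 60, 127 and 52 reads against 35, 12 and 38 (log2 change -1.36, SE 0.44, adjusted p = 0.0518). Its stages did not overlap, and it passed under 5 of 15 alternatives, with adjusted p values of 0.0364 to 0.0470.

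Stronger peaks were called lower more often in the whole table. Ranked by mean count into 10 groups of equal size, 0.392% of the weakest merged peaks and 12.3% of the strongest were lower post-molt, and the strongest group had a median log2 change of -0.32. The SSTR2 set held 4 peaks of the weakest group and 1, the promoter-class peak, of the strongest. Its median mean count was 48.3 reads, against 52.2 for all merged peaks.

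**Figure D2:**
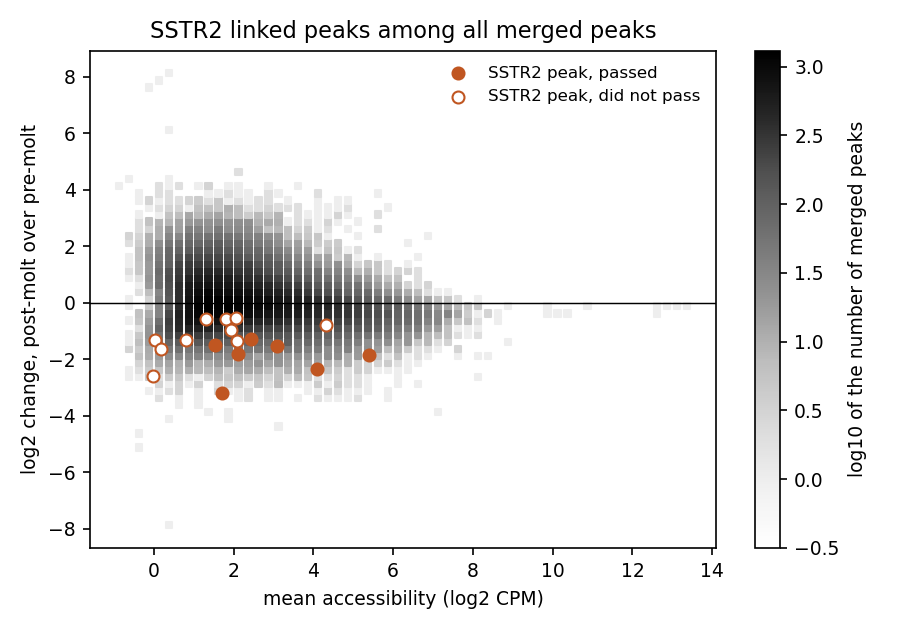
Log2 change of accessibility, post-molt over pre-molt, against mean accessibility (log2 CPM) for the SSTR2 peaks (circles, filled where the test was passed), over all 104657 merged peaks, shaded by their number on a log10 scale. All 17 SSTR2 peaks lie below 0, from weak peaks to strong ones.

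Added up, the 17 peaks held 2150, 2954 and 2095 reads pre-molt and 733, 707 and 942 post-molt. In CPM these were 184, 192 and 174 against 63.5, 56.4 and 82.6. The pre-molt libraries stood close together and all far above the post-molt ones. The mean fell 2.72-fold, from 183 ± 8.70 to 67.5 ± 13.5 CPM (n = 3 each), and in the edgeR fit of summed counts over 17908 genes the log2 change was -1.44 (SE 0.23, adjusted p = 0.00141). Of all genes 4.11% were lower post-molt and 6.90% were higher, and 137 genes had a lower log2 change than SSTR2. The sum includes the 12 peaks without a post-molt call, which favours a lower post-molt value. The shares and the rank over all genes are not matched for this. Without the 3 strongest peaks the log2 ratio of the stage means was -1.32.

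The lower accessibility was found both at the promoter-class peak and at the others. In a fit of promoter-class reads per gene, SSTR2 had a log2 change of -1.76 (SE 0.27, adjusted p = 0.00261), where 4.00% of 12536 genes were lower. In a fit of all other linked reads, it had -1.32 (SE 0.24, adjusted p = 0.00368), where 3.54% of 14209 genes were lower. The first fit repeats the promoter-class peak described above. The second includes all 12 members without a post-molt call, which favours a lower post-molt value, and its share of genes is not matched for this. The promoter-class peak took 32.0% (95% Wilson interval 30.1 to 34.0), 41.5% (39.7 to 43.3) and 30.4% (28.5 to 32.4) of the linked reads pre-molt. Post-molt it took 20.2% (17.4 to 23.2), 33.8% (30.4 to 37.4) and 29.6% (26.8 to 32.6). These intervals cover counting error only, and the shares of the stages overlapped.

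Grouped by distance after the values were seen, and so with no test, every stretch was lower. The 2 peaks within 10 kb of the start summed to 69.9 ± 16.7 CPM pre-molt and 21.1 ± 4.91 post-molt. The 4 peaks at 20 to 35 kb upstream summed to 21.9 ± 5.08 and 10.4 ± 2.39 CPM. The 11 peaks more than 85 kb upstream summed to 96.0 ± 3.76 and 34.4 ± 9.10 CPM. This most distant stretch gave 42.9 to 61.5% of the linked reads of a library.

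The peak lists called in each library separately held fewer of the SSTR2 regions post-molt. Of the 17 merged peaks, 11, 13 and 10 overlapped a peak of the library's own list pre-molt and 4, 2 and 5 did post-molt. The stage means were 11.3 ± 1.53 and 3.67 ± 1.53 (n = 3 each), a difference of -7.67. An exact two-sided permutation test gave p = 0.1, the smallest value that 3 against 3 libraries allow. Merged peaks rest on calls in these same lists, so members without a post-molt call could count only pre-molt. The test therefore cannot separate a difference between the stages from the way members entered the set. Over all merged peaks the shares with a called peak were alike in the stages, at 43.4, 50.3 and 48.2% pre-molt and 42.7, 47.8 and 45.4% post-molt. Only the promoter-class peak and the peak 112.0 kb upstream were called in all 6 libraries, as were 19.1% of all merged peaks. There were 12 members with no called peak in any post-molt library, a pattern of 28.4% of all merged peaks. Of all 17 members, 3 were called in every pre-molt library and in no post-molt one, at 24.3, 119.8 and 144.8 kb upstream, against 1.68% of all merged peaks. Another 8 of the 17 were called in a single library, a pre-molt one each time, against 21.9% of all merged peaks. Among all merged peaks, 29714 had no post-molt call, of which 1761 were called in every pre-molt library and 22869 in 1 pre-molt library only. Within the 12 members without a post-molt call, a single call was therefore no more common than in the whole table.

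**Figure D3:**
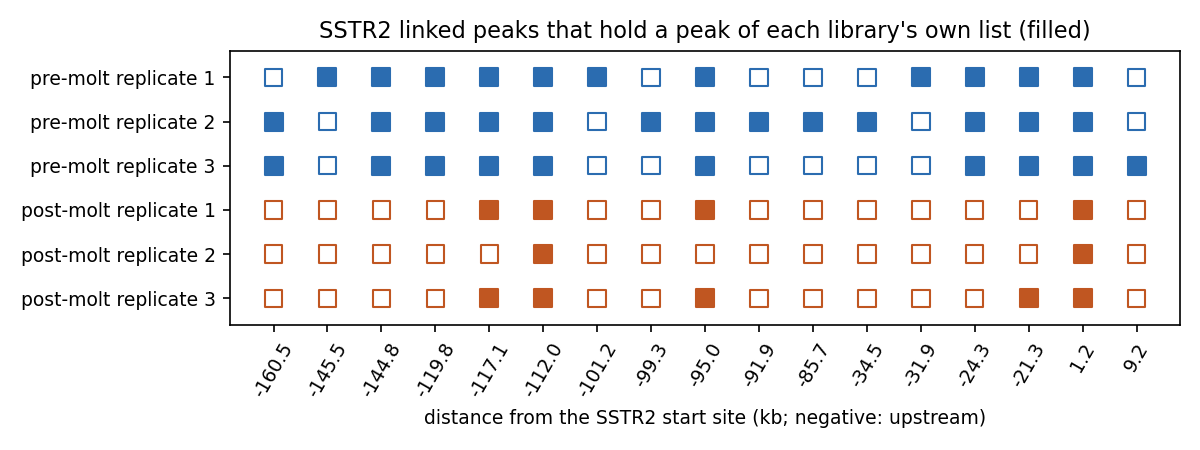
Filled squares mark the SSTR2 peaks (columns, by distance from the start site in kb) that overlap a peak in the library's own list (rows). Pre-molt libraries fill 11, 13 and 10 of the 17 columns and post-molt libraries 4, 2 and 5.

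The genes around SSTR2 served as the local background. The 5 genes with linked peaks on each side held 59 peaks, of which 5 were lower and 7 higher post-molt, with a median log2 change of 0.31. These counts were 1 lower and 3 higher without pre-molt replicate 2, and 1 lower and 2 higher without post-molt replicate 2. The lower count was 2 without post-molt replicate 1 or 3, and the higher count was 4 without pre-molt replicate 3. Their summed reads were 5356, 8628 and 5054 pre-molt and 5269, 7011 and 4912 post-molt. SSTR2 reads over flanking reads came to log2 ratios of -1.32, -1.55 and -1.27 pre-molt and -2.85, -3.31 and -2.38 post-molt. Because each ratio is taken inside a library, it does not depend on how libraries are scaled. It does depend on which peaks entered the SSTR2 set, many of them through pre-molt calls only. The means were -1.38 ± 0.15 and -2.85 ± 0.46 (n = 3 each), and the difference of -1.47 had an exact two-sided permutation p of 0.1, the smallest possible here. The stages did not overlap.

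The sides of the gene differed from each other. On the downstream side of SSTR2 the 37 peaks of 5 genes had a median log2 change of 0.91, with 7 higher and 2 lower. On the upstream side the 22 peaks of 5 genes had a median of -0.26, with 0 higher and 3 lower, and 17 of the 22 were below 0. All 3 of those calls belonged to the nearest gene on that side, evm.TU.CM024152.1.290 (CM024152.1:8992143-8993277). The difference between the sides was not tested.

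The upstream neighbour evm.TU.CM024152.1.290 was also less accessible post-molt, by a smaller amount than SSTR2. Its 8 peaks, whose centres lie 204.5 to 261.5 kb upstream of the SSTR2 start, summed to 78.0, 109 and 70.3 CPM pre-molt and to 47.2, 42.9 and 50.9 CPM post-molt. The stages did not overlap, and the mean fell from 85.7 ± 20.3 to 47.0 ± 4.00 CPM (n = 3 each; log2 change -0.87, SE 0.23, adjusted p = 0.0232). That call was lost without pre-molt replicate 2 (adjusted p = 0.0542) and without post-molt replicate 1, 2 or 3 (adjusted p = 0.0650, 0.0979 and 0.0582). All 8 log2 changes were below 0, from -2.76 to -0.06. Measured against this neighbour alone, the difference for SSTR2 was -0.62 in place of -1.47, with an exact permutation p of 0.1 that is again the smallest possible. Lower accessibility post-molt was therefore seen on both sides of the boundary that the nearest-start rule sets between the genes.

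The convergent neighbour evm.TU.CM024152.1.287 did not pass as a whole. Its 15 peaks summed to 117, 105 and 77.2 CPM pre-molt and to 103, 152 and 90.7 CPM post-molt, with a log2 change of 0.21 (SE 0.25, adjusted p = 0.670). Its peaks moved in both directions. The 10 whose centres lie 25.2 to 55.1 kb from the SSTR2 start all had log2 changes above 0, from 0.05 to 1.98, and 4 were higher. Of the 5 nearer ones, at 13.8 to 24.6 kb, 4 were below 0. The nearer ones include the peak at the neighbour's own start, CM024152.1:8641404-8641713, with 210, 122 and 64 reads pre-molt and 47, 65 and 34 post-molt, which was lower (log2 change -1.37, adjusted p = 0.0312). With 1 library left out, that call held only where it was pre-molt replicate 3, and leaving out any of the other 5 gave an adjusted p of 0.0503 to 0.201. The cut at 25 kb was chosen after the values were seen. Measured against this neighbour alone, the difference for SSTR2 was -1.65, with an exact permutation p of 0.1, the smallest possible.

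**Figure D4:**
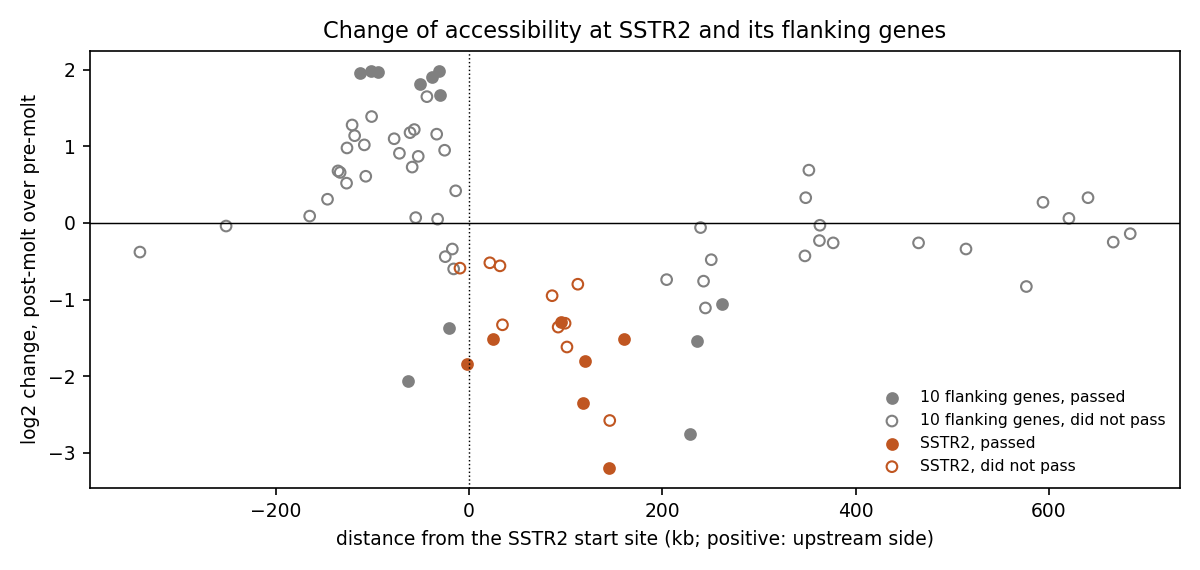
Log2 change, post-molt over pre-molt, of every peak of SSTR2 (orange) and of the 5 genes with linked peaks on each side (grey), against the distance of the peak centre from the SSTR2 start site in kb. Filled circles passed the test. The SSTR2 peaks, from -3.20 to -0.52, lie between a downstream side with a median of 0.91 and an upstream side with a median of -0.26.

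**Figure D5:**
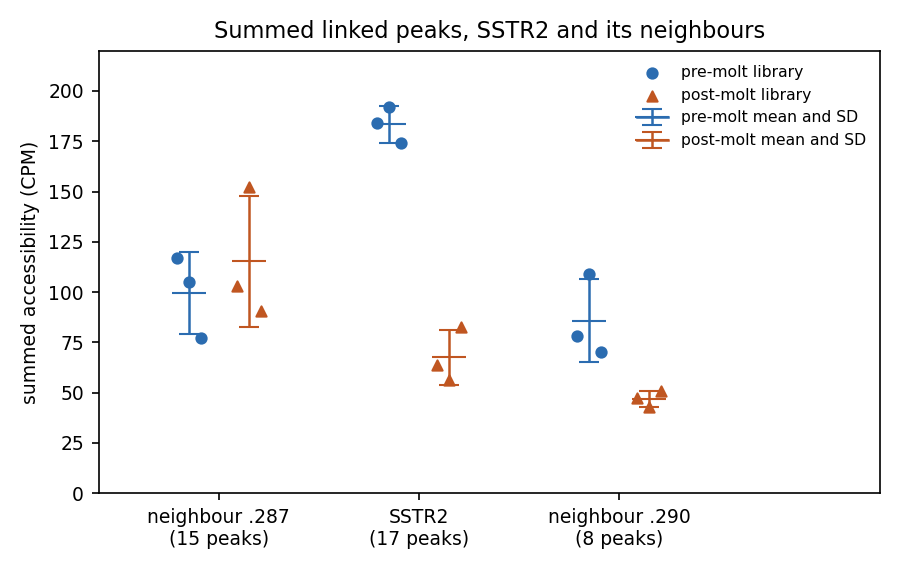
Summed accessibility (CPM) of all linked peaks in each library for SSTR2 and the gene on either side, evm.TU.CM024152.1.287 and evm.TU.CM024152.1.290, with the mean and SD of 3 libraries per stage. SSTR2 went from 183 to 67.5 CPM and evm.TU.CM024152.1.290 from 85.7 to 47.0, while evm.TU.CM024152.1.287 overlapped between the stages.

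The study's other candidate receptors did not share one direction. It lists 10 further genes in the same structural comparison, chosen partly on these libraries, so their calls are not independent evidence. The same holds for SSTR2, which the study picked from its comparison of pre-molt with molt. On summed peaks 1 of the 10 was lower, 4 were higher and 5 did not pass, with a median log2 change of 0.57 against -0.03 over all genes. The lower one was moody, which in *Drosophila* is needed for the blood-brain barrier, with 301, 353 and 205 CPM pre-molt and 137, 109 and 126 post-molt (log2 change -1.21, SE 0.24, adjusted p = 0.00601). GRM7, a metabotropic glutamate receptor, had the largest rise, from 10.9 ± 2.11 to 45.5 ± 24.4 CPM (n = 3 each; log2 change 2.06, SE 0.32, adjusted p = 0.00141). The methuselah-type receptor mth2 rose with a log2 change of 1.41 (adjusted p = 0.00141), a rhodopsin-like receptor with 1.28 (adjusted p = 0.00230) and sky with 0.79 (adjusted p = 0.0249). For sky the adjusted p was 0.0697 to 0.117 when pre-molt replicate 1 or 3 or post-molt replicate 1 or 2 was left out. FMRFaR, a receptor of FMRFamide peptides, had 0.38 (adjusted p = 0.433). HTR4, named for a serotonin receptor, had -0.57 (adjusted p = 0.160). Of the others that did not pass, gpr161 and Kpna6 had 0.27 (adjusted p = 0.528) and 0.42 (adjusted p = 0.236). Among these 10 genes, the study's structure predictions did not bear out the rhodopsin-like gene, sky and HTR4 as G protein-coupled receptors.

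The genes most like SSTR2 were sought among 5785 other genes with a mean summed count of at least 500 reads, by the root-mean-square difference of log2 CPM centred on each gene's mean over the 6 libraries. SSTR2 itself stood at 0.74, 0.79 and 0.66 in the pre-molt libraries and at -0.80, -0.97 and -0.42 in the post-molt libraries on this scale. The nearest was evm.TU.CM024156.1.311 (CM024156.1:10553618-10639995, 6 peaks), with a difference of 0.121 and a log2 change of -1.48. Next was evm.TU.CM024149.1.255 (CM024149.1:7135287-7137956, 10 peaks), with a difference of 0.124 and a log2 change of -1.60. The median difference over all genes compared was 0.74. These genes were picked by their likeness over the same 6 libraries, and the files pair no name with their IDs.

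The libraries held 41050903 to 51652893 reads, of which 10992785 to 16985168 fell in merged peaks. Pre-molt replicate 2 had the largest share of reads in peaks, at 36.69% against 23.82 to 27.89% in the other libraries. Without it 2.51% of all merged peaks were lower, and 5 SSTR2 peaks passed, which were the promoter-class peak and those at 112.0, 117.1, 119.8 and 144.8 kb upstream. No muscle or blood cell marker was checked, because the deposited files pair no names with gene IDs and names were taken from the study only for SSTR2 and its other candidate receptors.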

How the data were processed

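ATAC-seq libraries of crab muscle were grouped by their titles, and replicate numbers only name libraries. The authors aligned paired reads with BWA and called peaks with MACS2, as the submitters' processing notes name. The study's methods give a mapping quality of at least 13 and peak calling with duplicates kept, but only for its libraries of the molt stage. If these 6 libraries were treated likewise, PCR copies count as reads. The Tn5 offset shift and the merging of lists are not given in the sources used here. Peak names inside the lists carry other library numbers than the titles. The table's signs matched the list filed under the same sample in 100.0% of peaks, and that assignment was kept.

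The deposited merged table gives whole-number read counts per library and peak, which were used for all main tests. Its deposited RPM values gave the library totals, and its deposited fold enrichment, a ratio of RPM per base to a uniform background, entered only an alternative. The deposited lists give a MACS2 score, which was not printed, fold enrichment, and the -log10 of the p-value and q-value, with a smallest -log10 q of 1.30. Columns with the authors' own log2 fold change, p-value and q-value of this comparison were not used. Coordinates are 1-based.

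Counts were tested with edgeR 4.0.16 (R 4.3.3): quasi-likelihood F test, TMM factors, no filter, Benjamini-Hochberg adjustment over all peaks or genes, threshold 0.05. SE is the log2 change over the square root of F. Alternatives were DESeq2 1.42.0, limma 3.58.1, other scalings, filterByExpr, a replicate block and leaving out each library. The tests were tried on simulated data first. List peaks overlapping a merged peak by at least 1 base were counted. Tables were handled in Python 3.11.15 with pandas 2.3.3, numpy 2.4.6 and scipy 1.17.1, and figures drawn with matplotlib 3.10.9.

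The members, the gene lists and the comparisons were chosen with earlier results of these data known. Every linked peak is accounted for, with full statistics for the promoter-class peak and those past the threshold. Of the flanking genes the immediate neighbour on each side is named, and the 2 genes most like SSTR2. No 2 libraries of a stage agreed within sampling noise, with chi-square per degree of freedom of 5.66 to 18.6. The values of 1 further candidate receptor are not reported here.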

Additional observations from a re-analysis of the deposited data

How the results depend on the processing

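Over 15 alternatives, the promoter-class peak and those at 117.1, 119.8 and 144.8 kb upstream kept their calls, and of the 253 results of single SSTR2 peaks under an alternative 233 stayed on their side of the threshold, 13 lost a call, 7 gained one and 0 reversed. The count of SSTR2 peaks lower post-molt ranged from 4 to 8 with 1 library left out. Among flanking peaks the lower count ranged from 1 to 4 and the higher count from 2 to 9 with 1 library left out, and the lower count was 2 with limma on fold enrichment at either pseudocount. The cause of these shifts was not tested. Scaling each library by its median log2 CPM over all peaks moved the median log2 change of all peaks from -0.03 to -0.15. The share of higher among called peaks went from 61.2% to 49.9%, and 8 SSTR2 peaks were then lower. The summed log2 change stayed between -1.61 and -1.32, the latter without the 3 strongest peaks, a setting chosen after seeing the data. Same-numbered libraries did not deviate together (r = -0.088, -0.104 and -0.033), and differently numbered ones had r of -0.056 to 0.134. The numbers were not taken to pair the crabs, though with 3 libraries a stage this check cannot exclude pairing. With the replicate block, 8 SSTR2 peaks were lower and the summed log2 change was -1.46 (adjusted p = 1.98e-04). With 3 libraries a stage, no exact test can pass the threshold, and low counts in faint peaks limit single calls.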
